A study of Mus musculus with 20 samples.

Results

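Midday and midnight lie on opposite sides of the daily cycle, and the comparison here sets the 5 libraries of lymphatic endothelial cells (LECs) taken at ZT7 against the 5 taken at ZT19. ZT (Zeitgeber time) counts hours after lights on, so ZT7 falls in the light phase and ZT19 in the dark phase, 12 h apart. The members were chosen by the time point in the library labels, and they are 10 of the 20 libraries of the series. The labels give all mice as wild-type C57BL/6 at postnatal day 56 (the study's methods name wild-type C57BL/6N mice), and they name no transgene and no treatment for either group. Each library came from 4 ears of 2 mice, pooled and sorted as live podoplanin+CD31+ cells from ear skin, so 1 replicate is a pool and not an animal. In the study, entry of dendritic cells into skin lymphatics was examined at this same pair of times. The question addressed here is which LEC transcripts differed between them.

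The cell-autonomous circadian clock is a transcription loop. The activators BMAL1 (encoded by Arntl) and CLOCK bind E-box elements and switch on the Period and Cryptochrome genes, whose proteins then shut the activators off. A second loop runs through the nuclear receptors REV-ERB (Nr1d1 and Nr1d2), which repress Arntl, and ROR, which activate it. The PAR bZIP factors DBP, TEF and HLF and their competitor NFIL3 carry the rhythm to output genes through D-box elements. LECs line the lymphatic vessels that drain skin and through which dendritic cells travel to lymph nodes.

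E-box and D-box letters were looked up in the reference promoters of the 21 genes of this loop, since the data compare the transcripts that these elements serve. Of the 21 genes, 18 had a window in the RefSeq promoter table (GRCm38.p6), 24 windows in all, each running from 250 bases before to 50 bases after a start site. The E-box was searched as CACGTG, which reads the same on both strands, and the D-box as TTATGTAA on either strand. The E-box stood in a window of 5 of the 18 genes and the D-box in the window of 1 gene. Of all 32851 promoter windows, 7.15% held the E-box and 0.938% the D-box. The first counts are per gene, with up to 3 windows each, and the shares are per window, so they cannot be compared directly. The stretches below are 5′ to 3′ on the strand of the gene, with the matched letters in capitals.
Per1, chr11:69098753-69098818, plus strand: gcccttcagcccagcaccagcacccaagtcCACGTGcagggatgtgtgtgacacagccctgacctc
Cry1, chr10:85185079-85185144, minus strand: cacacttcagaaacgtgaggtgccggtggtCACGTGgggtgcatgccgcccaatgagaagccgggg
Bhlhe41, chr6:145865538-145865603, minus strand: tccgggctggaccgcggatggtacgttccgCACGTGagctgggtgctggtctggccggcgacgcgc
Tef, chr15:81802516-81802581, plus strand: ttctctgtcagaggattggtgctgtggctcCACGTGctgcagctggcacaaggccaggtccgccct
Per3, chr4:151044833-151044900, minus strand: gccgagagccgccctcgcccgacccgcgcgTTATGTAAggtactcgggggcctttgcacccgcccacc
The E-box of Per1 began 166 bases before its start site, that of Cry1 60 bases, that of Bhlhe41 153 bases and that printed for Tef 127 bases. A second window of Tef, at another start site, held an E-box 138 bases before that start. Ciart held 3 E-boxes, and Per3 held 2 D-boxes, the first 205 bases before the start. The window of Dbp held neither set of letters. A match describes the letters only.

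Libraries of both time points carried the markers of LECs. The lymphatic transcription factor Prox1 had 2240 ± 621 normalized counts at ZT7 and 2084 ± 773 at ZT19, the receptor gene Flt4 had 8687 ± 2547 and 8901 ± 3579, and Pdpn had 1598 ± 1133 and 1274 ± 968 (means ± SD over 5 libraries). A normalized count is the raw count divided by the effective size of its library (TMM scaling) and set to the typical size of the 20. Summed over the 12 lymphatic identity markers, the levels ran from 49360 to 105200 at ZT7 and from 70090 to 89740 at ZT19. Ccl21a and its copies Ccl21b and Ccl21c were listed at 0 in all 10 libraries. How reads that match several such copies were counted is not given in the sources used here, so these zeros cannot be read as missing expression. Keratinocyte markers were also high, with sums of 69590 to 192200 at ZT7 and 104200 to 199800 at ZT19. Those sums were of Krt14, Krt15 and 17 other epidermal genes.

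The libraries of the 2 times had unlike ranges of depth and of reads on genes, although no library property tested passed adjustment. Gene reads numbered 4475111 to 16936960 per library at ZT7 (median 6139585) and 10809823 to 36022409 at ZT19 (median 22161080). Replicates 3, 4 and 5 of ZT7 had 15.5%, 17.5% and 12.7% of their reads on genes, against 37.7% and 62.3% in replicates 1 and 2 and 35.0% to 81.6% at ZT19. Here the percentage is reads on genes out of reads on genes plus reads on no gene. The mean log2 total was 1.43 higher at ZT19 (exact two-sided permutation test, p = 0.0317, adjusted over 3 properties p = 0.0833, smallest possible p 0.00794). The mean log2 odds of a read lying on a gene was 2.13 higher at ZT19 (p = 0.0556, adjusted p = 0.0833 by the same exact test). Detected gene symbols numbered 16147 to 21540 at ZT7 and 12477 to 18768 at ZT19, a mean difference of -2988 (p = 0.111 by the exact test). Reads on 1460 olfactory and vomeronasal receptor genes, which LECs are not known to use, made up 132 to 3822 ppm of gene reads at ZT7 and 24.0 to 350 ppm at ZT19. At ZT7 replicates 3, 4 and 5 held 1298, 2094 and 3822 ppm. The part of these library properties in the gene results was not tested. Properties of the libraries and time of day cannot be fully told apart. For the genes and lists that the results turn on, values are also given from a fit with the log2 odds as a covariate and from a fit without those 3 ZT7 libraries.

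**Figure D1:**
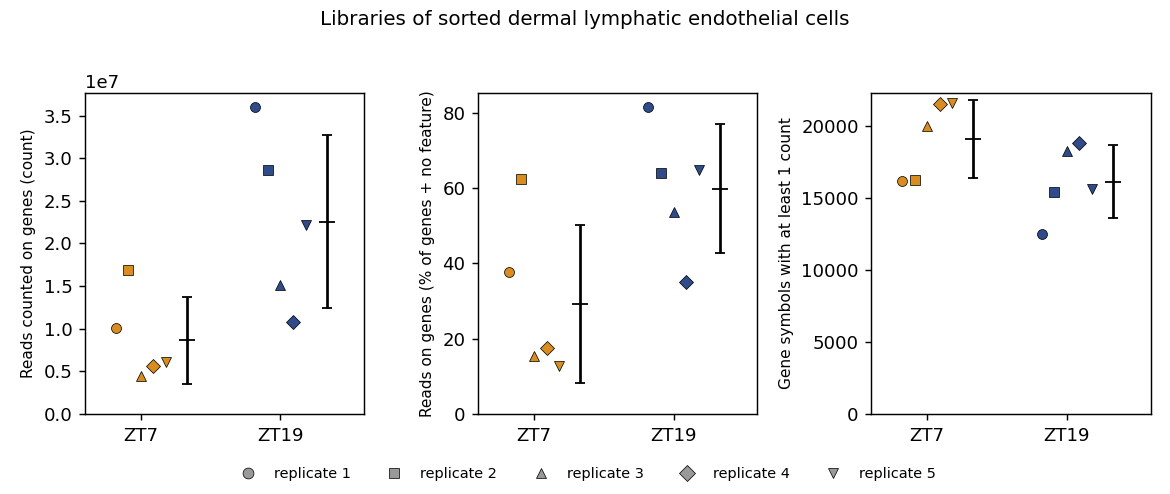
Reads counted on genes, reads on genes as a percentage of reads on genes plus no feature, and gene symbols with at least 1 count, for each of 5 libraries at ZT7 (orange) and ZT19 (blue), with mean and SD as a bar at the right of each group. Replicates 3, 4 and 5 of ZT7 have under 20% of their reads on genes and 20002 or more detected symbols.

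By edgeR's quasi-likelihood test, adjusted after Benjamini and Hochberg over all 19209 genes tested, 3 genes passed a threshold of 0.05, which is 0.0156% of the genes. Dbp and Fam131b fell from ZT7 to ZT19 (0.0104% of genes in this direction), and Aldh3a1 rose (0.00521%). At an unadjusted p under 0.05 there were 1287 genes with higher means at ZT19 (6.70%) and 2491 with higher means at ZT7 (13%). The ZT19 share of these was 34.1%. With the log2 odds of gene reads as a covariate that share was 83.2%, without ZT7 replicates 3, 4 and 5 it was 49.4%, with relative log expression (RLE) scaling 19.8% and with upper-quartile scaling 16.1%. The split thus depended on the setting. DESeq2 made 208 calls higher at ZT19 (0.972%) and 2410 higher at ZT7 (11.3%), together 12.2% of the 21405 genes for which it gave an adjusted p. As a background for the counts below, the fit with the covariate had 9.03% of genes at an unadjusted p under 0.05 with the higher mean at ZT19 and 1.83% with the higher mean at ZT7, and the fit without ZT7 replicates 3, 4 and 5 had 1.88% and 1.93%. In the fit of the 10 libraries alone edgeR made 0 calls, with 987 and 562 genes at an unadjusted p under 0.05.

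The split went with expression level. Among the 10720 genes with a mean of at least 100 normalized counts, 11.9% were at an unadjusted p under 0.05 with the higher mean at ZT19 and 2.49% with the higher mean at ZT7. Among the 8489 genes below that mean the shares were 0.130% and 26.2%. No count at all was found at ZT19 for 583 tested genes, and at ZT7 for 2 tested genes. The filter looked at all 20 libraries, so a gene without counts at ZT19 could be tested through its level at other times. These numbers therefore depend on the filter. The ZT19 share of genes at an unadjusted p under 0.05 was 63.7% in the fit of the 10 libraries alone. It was 54.4% with a stricter filter (at least 50 counts in 5 libraries). The median log2 fold change (ZT19 over ZT7) of all tested genes was -0.20, and values for single genes are read against it. It was -0.43 with RLE scaling, -0.49 with upper-quartile scaling and 0.24 with the covariate.

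Dbp, the PAR bZIP output factor of the clock, gave the smallest p of all genes (chr7:45705100-45710203, GRCm38.p6). Its normalized counts at ZT7 were 787, 898, 891, 738 and 516 in replicates 1 to 5, and at ZT19 they were 258, 238, 193, 107 and 164. All ZT7 libraries lay above all ZT19 libraries, which was so for 1.02% of tested genes in this direction. The log2 fold change was -1.99 ± 0.32 (SE; edgeR's quasi-likelihood test, adjusted p = 0.0232). It was -2.35 with the covariate and -2.13 without the 3 ZT7 libraries, where no gene passed adjustment. Across 22 alternatives the value lay between -2.35 and -1.84, with adjusted p between 7.4e-10 and 0.559, and 13 of the 22 called it.

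Aldh3a1, an aldehyde dehydrogenase that clears reactive aldehydes, was the only gene called higher at ZT19 (chr11:61208510-61218418). Its counts were 1764, 1713, 1259, 1358 and 1380 at ZT7 and 3020, 4289, 6135, 6301 and 8529 at ZT19. Every ZT19 library lay above every ZT7 library, as for 0.921% of tested genes in this direction. The log2 fold change was 1.92 ± 0.35 (edgeR's quasi-likelihood test, adjusted p = 0.0431), 2.11 with the covariate and 1.71 without the 3 ZT7 libraries. Adjusted p ran from 5.35e-05 to 1 over the alternatives, and 4 of 22 called it.

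Fam131b (chr6:42315305-42324640) had 79.9, 4.57, 74.0, 75.8 and 190 normalized counts at ZT7 and 0 in all 5 ZT19 libraries. The 307 raw counts at ZT7 against a floor of 3 counts over the ZT19 group make it at least 253-fold lower at ZT19 (edgeR's quasi-likelihood test, adjusted p = 0.0431). It is a gene of low level, and its lowest ZT7 library was replicate 2, the one at that time with the largest share of reads on genes. It was tested in 20 of the 22 alternatives and called in 6 of the 20, with adjusted p from 5.22e-10 to 0.559. The sign held with the covariate (unadjusted p = 2.12e-05) and without the 3 ZT7 libraries (unadjusted p = 0.000129).

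Within the clock, several outputs and repressors had their higher means at midday, and Cry1 and Nfil3 had theirs at midnight. Of the 10 repressors, 4 were at an unadjusted p under 0.05 with the higher mean at ZT7 (Bhlhe41, Nr1d2, Nr1d1 and Per1) and 1 with the higher mean at ZT19 (Cry1), against 13% and 6.70% of all genes. The 4 became 2 without ZT19 replicate 5 and 3 or 4 without any other single library. Of the 3 PAR bZIP genes and Nfil3, 2 were so at ZT7 (Dbp and Hlf) and 1 at ZT19 (Nfil3). None of the 7 activators was. Except for Dbp, none passed adjustment, and the adjusted p of 0.107 recurs below because Benjamini-Hochberg adjustment gives many ranks the same value.

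Hlf, the PAR bZIP partner of Dbp, had 761, 568, 863, 720 and 481 normalized counts at ZT7 and 118, 120, 240, 472 and 165 at ZT19. The groups did not overlap, although ZT19 replicate 4 came close to the lowest ZT7 library. The log2 fold change was -1.61 ± 0.43 (adjusted p = 0.107), -1.09 with the covariate and -1.57 without the 3 ZT7 libraries. The third PAR bZIP gene, Tef, had means of 2230 ± 580 and 2011 ± 665, and its libraries overlapped throughout.

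Nfil3, which competes with the PAR bZIP factors for D-boxes, showed the opposite pattern. Its counts were 176, 284, 142, 285 and 129 at ZT7 and 365, 553, 669, 288 and 671 at ZT19. The groups did not overlap, but ZT19 replicate 4 stood only just above the highest ZT7 library. Its log2 fold change was 1.32 ± 0.43 (adjusted p = 0.112), 0.80 with the covariate and 1.15 without the 3 ZT7 libraries, and it passed in neither fit (unadjusted p = 0.12 and unadjusted p = 0.073).

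Nr1d1 and Nr1d2 encode the REV-ERB repressors. Nr1d1 had 1607, 2479, 1925, 1304 and 1940 normalized counts at ZT7 and 1335, 1655, 1198, 577 and 638 at ZT19. The groups overlapped through replicates 1 and 2 of ZT19, and the log2 fold change was -0.78 ± 0.33 (unadjusted p = 0.0283, adjusted p = 0.205). Nr1d2 had 1387, 1502, 1712, 847 and 1250 at ZT7 and 448, 786, 1065, 744 and 426 at ZT19, with a log2 fold change of -0.95 ± 0.32 (adjusted p = 0.122). Both kept their sign in all 22 alternatives, with ranges of -1.29 to -0.62 for Nr1d1 and -1.20 to -0.81 for Nr1d2. With the covariate they were -1.29 and -0.84, and without the 3 ZT7 libraries -0.92 and -1.05. Ciart, another repressor of the activator pair, had means of 324 ± 209 and 208 ± 88.3 and overlapping libraries.

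Cry1, the cryptochrome that represses late in the cycle, had 134, 465, 336, 270 and 152 normalized counts at ZT7 and 1492, 918, 744, 285 and 398 at ZT19. Replicates 1, 2 and 3 of ZT19 lay above all of ZT7, and replicates 4 and 5 lay within its range. For Cry1 the log2 fold change was 1.50 ± 0.46 (adjusted p = 0.107), 1.33 with the covariate (unadjusted p = 0.0359) and 1.35 without the 3 ZT7 libraries (unadjusted p = 0.052). Its paralogue Cry2 had means of 864 ± 195 and 1161 ± 609, with a log2 difference of 0.43 ± 0.40 (unadjusted p = 0.297).

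The E-box repressor gene Bhlhe41 had 348, 50.9, 616, 364 and 556 normalized counts at ZT7 and only 99.8 to 134 at ZT19. Replicate 2 of ZT7 lay below all ZT19 libraries, while the other 4 lay above them. The log2 fold change of -1.75 ± 0.55 (adjusted p = 0.107) became 0.02 with the covariate and -0.79 without the 3 ZT7 libraries, where it did not pass (unadjusted p = 0.971 and unadjusted p = 0.283). Its homologue Bhlhe40 had overlapping libraries, with a log2 difference of 0.25 ± 0.39.

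The Period genes did not move together. Per1 had 538, 426, 1549, 934 and 1415 normalized counts at ZT7 and 428, 522, 776, 614 and 275 at ZT19, and its high ZT7 values stood in the 3 libraries with few reads on genes. Its log2 fold change of -0.89 ± 0.41 (unadjusted p = 0.0374) was 0.25 with the covariate and 0.12 without those libraries, so its sign differed between fits. Per2 had means of 249 ± 104 and 315 ± 213, and Per3 had 1432 ± 400 and 1093 ± 270. Their log2 differences were 0.33 ± 0.51 and -0.39 ± 0.29, with overlapping libraries.

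Among the activators, Arntl had 146, 405, 182, 159 and 196 normalized counts at ZT7 and 370, 490, 364, 181 and 349 at ZT19. Replicate 2 of ZT7 lay among the ZT19 libraries and replicate 4 of ZT19 among those of ZT7, and the log2 difference of 0.69 ± 0.51 did not pass (unadjusted p = 0.192). Clock had means of 886 ± 258 and 667 ± 265, and Npas2, its homologue, had 78.1 ± 34.8 and 30.3 ± 34.1. Arntl2, Rora and Rorb had log2 differences of -0.50 ± 0.77, 0.09 ± 0.40 and -1.22 ± 1.21. The signs of Clock, Arntl2, Rora and Rorb changed in at least 1 alternative. Of 10 clock kinases, modifiers and outputs, 0 were at an unadjusted p under 0.05, and the smallest p was that of the casein kinase gene Csnk1d (0.0926).

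**Figure D2:**
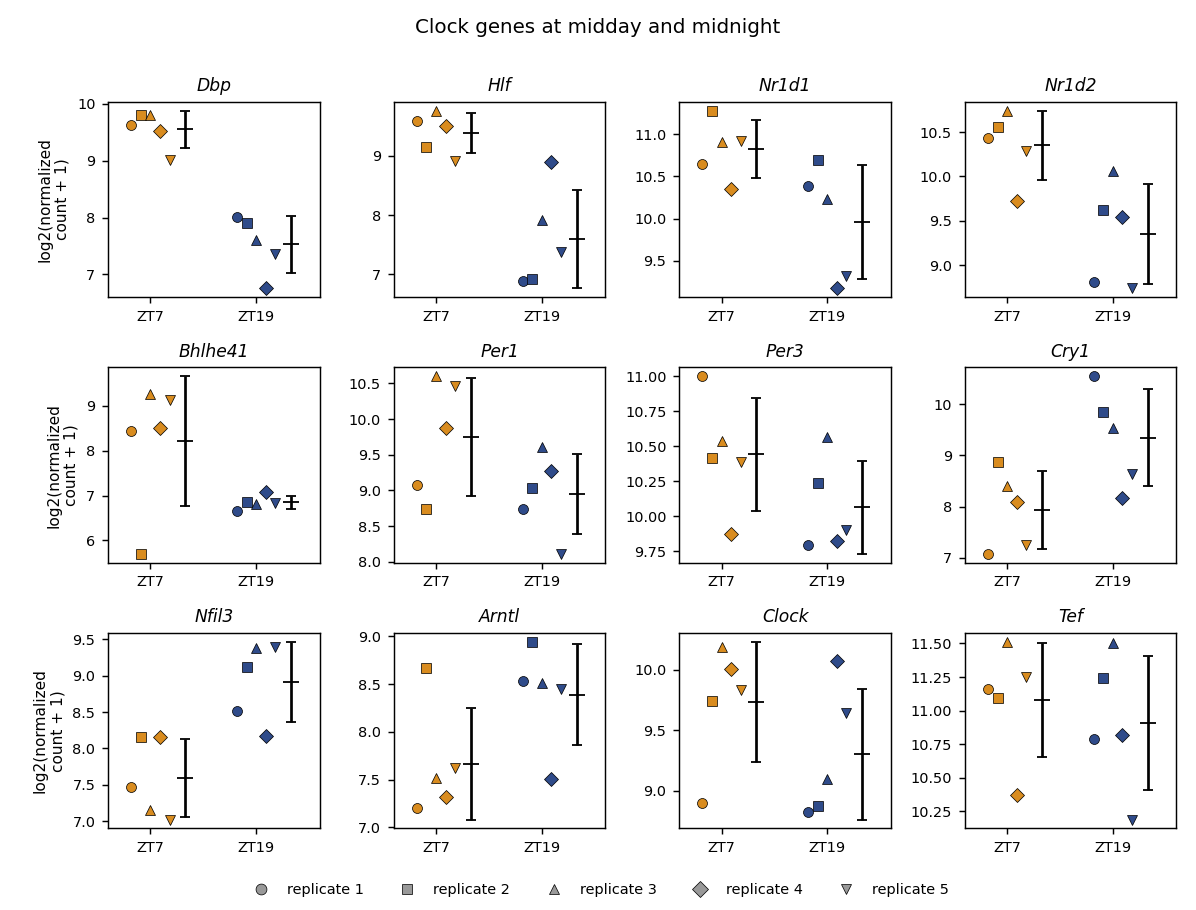
Log2(normalized count + 1) of 12 clock genes in each of 5 libraries at ZT7 (orange) and ZT19 (blue), with marker shapes for the replicate and mean and SD of the log2 values as bars. Dbp and Hlf lie higher at ZT7 and Nfil3 higher at ZT19 without overlap, while in Bhlhe41 replicate 2 of ZT7 falls below every ZT19 library.

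Among the lists with at least 7 tested members, the cell cycle list had the largest share of members at an unadjusted p under 0.05. Of 26 members, all tested, 16 were so with the higher mean at ZT19 and 0 with the higher mean at ZT7, against 6.70% and 13% of all genes (11.9% and 2.49% among genes with a mean of at least 100 normalized counts). Their median log2 fold change was 1.14, against -0.20 over all tested genes. None passed adjustment. Summed over the 26 genes, the normalized counts at ZT7 were 8373, 6462, 7117, 5852 and 6880, and at ZT19 they were 13000, 14250, 13100, 12870 and 18720. The sums of the 2 times did not overlap. The 16 genes had log2 fold changes of 0.77 to 3.50. Their number was 10 with the covariate, 9 without the 3 ZT7 libraries and 12 to 16 when any single library was left out. Keratinocyte marker sums, which include the dividing basal layer of the epidermis, had medians of 99510 at ZT7 and 168600 at ZT19. With keratinocyte and fibroblast scores as covariates, 14 cell cycle genes were at an unadjusted p under 0.05, where 7.96% of all genes were so with the higher mean at ZT19. In bulk libraries, cell cycle transcripts of LECs and of keratinocytes cannot be told apart.

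Ccnb1, cyclin B1 of the G2 to M transition, had 97.1, 30.3, 140, 47.5 and 51.4 normalized counts at ZT7 and 439, 1195, 138, 258 and 1447 at ZT19. ZT19 replicate 3 lay just below the highest ZT7 library, and the log2 fold change was 3.26 ± 0.74 (adjusted p = 0.107), 2.84 with the covariate and 3.46 without the 3 ZT7 libraries. Pcna, the sliding clamp of DNA replication, had 793, 935, 512, 389 and 551 at ZT7 and 1179, 1177, 1406, 1345 and 1942 at ZT19. Its groups did not overlap, and the log2 fold change was 1.15 ± 0.29 (adjusted p = 0.107), or 0.71 without the 3 ZT7 libraries (unadjusted p = 0.0798). Of the replicative helicase subunits, Mcm5 had means of 279 ± 129 and 859 ± 406 with a log2 fold change of 1.62 ± 0.48, and Mcm6 had 815 ± 295 and 1507 ± 325 with 0.89 ± 0.30. With the covariate these were 1.90 and 0.43, and without the 3 ZT7 libraries 2.30 and 0.50, and Mcm6 passed in neither fit. Genes of DNA replication and of mitosis were both among the 16.

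**Figure D3:**
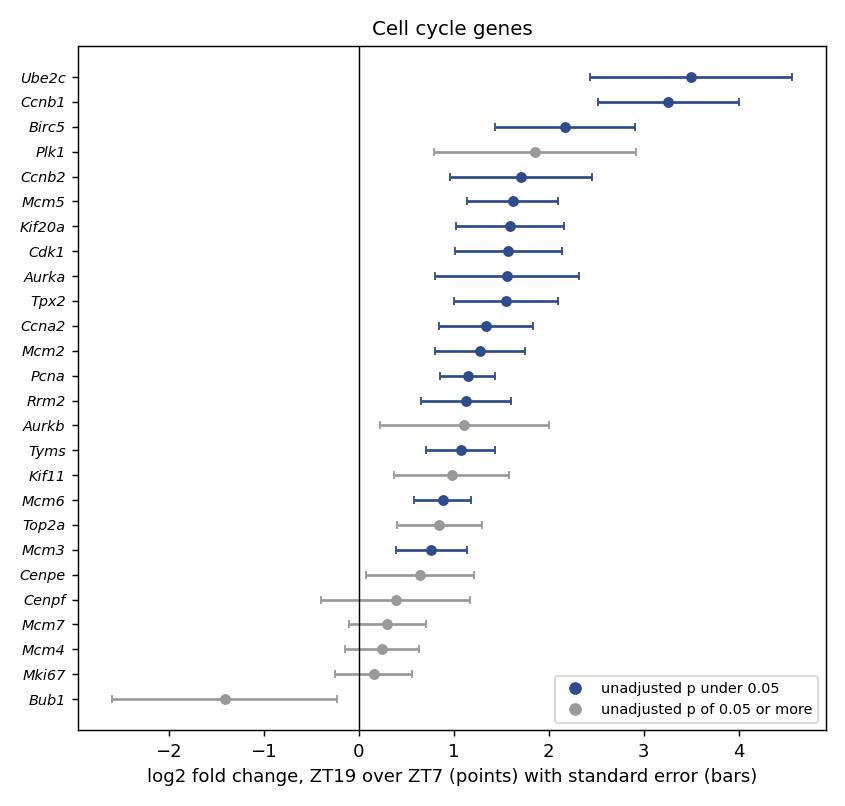
Log2 fold changes (ZT19 over ZT7) with standard errors for the 26 cell cycle genes, blue where the unadjusted p was under 0.05 and grey elsewhere. The 16 blue genes lie between 0.77 and 3.50, and 1 grey gene lies below 0.

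Some of the immediate early genes, which respond within minutes to stimulation or handling, also had higher means at midnight. Of 21 tested members (of 22), 8 were at an unadjusted p under 0.05 with the higher mean at ZT19 and 0 with the higher mean at ZT7, against 6.70% and 13% of all genes (11.9% and 2.49% at a mean of at least 100). The median log2 fold change was 0.53. It was positive in 18 of the 21 genes (14 with RLE or upper-quartile scaling), and the other 3 had log2 differences of -1.46 to -0.44 that did not pass. Ier2 had 2385, 2089, 1045, 2066 and 1455 normalized counts at ZT7 and 6382, 3629, 3261, 6728 and 5281 at ZT19, without overlap. Its log2 fold change was 1.48 ± 0.41 (adjusted p = 0.107), 1.11 with the covariate and 1.18 without the 3 ZT7 libraries (unadjusted p = 0.0517). Fos, the AP-1 subunit, had 3439, 2928, 2137, 3436 and 4162 at ZT7 and 4712, 8716, 7346, 5308 and 5887 at ZT19, again without overlap, and a log2 fold change of 0.99 ± 0.35 (adjusted p = 0.132), or 0.87 and 1.01 in those fits (unadjusted p = 0.0379 and unadjusted p = 0.0576). Egr1 had means of 2375 ± 654 and 5213 ± 1819, and its groups overlapped. For Egr1 the log2 fold change of 1.13 ± 0.35 was 0.94 with the covariate and 1.27 without the 3 ZT7 libraries. The count of 8 became 5 with the covariate, 2 without the 3 ZT7 libraries and 5 to 9 when any single library was left out, with 5 without ZT7 replicate 3 or 5 or ZT19 replicate 2. Cells were released by enzyme digestion of the ear before sorting, so expression in the tissue and during digestion cannot be told apart.

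Targets of the glucocorticoid receptor gave a mixed picture. Of 17 members, 3 were at an unadjusted p under 0.05 with the higher mean at ZT19 and 1 with the higher mean at ZT7, against 6.70% and 13% of all genes (11.9% and 2.49% at a mean of at least 100). Leaving out 1 library moved the 3 between 1 (without ZT7 replicate 3 or 5 or ZT19 replicate 2) and 5 (without ZT7 replicate 1 or 2), and the 1 became 0 without ZT7 replicate 4. The phosphatase gene Dusp1 had 3204, 6485, 2549, 3736 and 2735 normalized counts at ZT7 and 23481, 14067, 8726, 4325 and 8586 at ZT19, where only replicate 4 lay within the ZT7 range. Its log2 fold change was 1.66 ± 0.48 (adjusted p = 0.107), 0.44 with the covariate and 1.29 without the 3 ZT7 libraries. Tsc22d3, which encodes GILZ, had means of 2965 ± 2107 and 6756 ± 2878 (unadjusted p = 0.0192). Ddit4, an inhibitor of mTORC1, had means of 1499 ± 1117 and 618 ± 326, but the log2 fold change of -1.28 ± 0.47 was 0.24 without the 3 ZT7 libraries. With the covariate, and without those libraries, 0 of the 17 were at an unadjusted p under 0.05.

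Heat shock chaperones and cold-inducible RNA binders, which follow body temperature in opposite directions, both had positive log2 fold changes here. All 11 chaperone genes had positive log2 fold changes (median 0.56), although 10 did with RLE or upper-quartile scaling and 8 without ZT19 replicate 4. Of the 11, 4 were at an unadjusted p under 0.05, against 6.70% of all genes with the higher mean at ZT19 (11.9% at a mean of at least 100). Leaving out 1 library gave 1 to 5, with 1 without ZT7 replicate 5 and 2 without ZT7 replicate 3 or 4 or ZT19 replicate 5. Hspa8 had 4826, 4995, 3514, 2411 and 1465 normalized counts at ZT7 and 7581, 6582, 5902, 7810 and 7243 at ZT19, without overlap, and a log2 fold change of 1.03 ± 0.38 (adjusted p = 0.142). Dnajb1 did not overlap either, with means of 725 ± 168 and 1394 ± 490. The cold-inducible Rbm3 had 1582 ± 676 and 2981 ± 1307 (unadjusted p = 0.0114), and Cirbp had 2046 ± 776 and 3326 ± 511 (unadjusted p = 0.0481). Of this pair, 1 was at an unadjusted p under 0.05 without ZT7 replicate 1, 3 or 5 or ZT19 replicate 1, 2 or 3, and 0 were without ZT19 replicate 5. None of these 13 genes was at an unadjusted p under 0.05 with the covariate or without the 3 ZT7 libraries.

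Redox and detoxification genes had 6 of 18 members at an unadjusted p under 0.05 with the higher mean at ZT19, Aldh3a1 among them, and 0 with the higher mean at ZT7. The shares of all genes were 6.70% and 13% (11.9% and 2.49% at a mean of at least 100). Gstm1, a glutathione transferase, had means of 3539 ± 1305 and 7828 ± 2980, and Gclc, the rate-limiting enzyme of glutathione synthesis, had 724 ± 372 and 1585 ± 679. Their log2 fold changes were 1.15 ± 0.38 and 1.13 ± 0.39, and both sets of libraries overlapped. With the covariate these were 0.59 and 0.48, and without the 3 ZT7 libraries 0.71 and 0.79. The count of 6 became 2 with the covariate, 1 without the 3 ZT7 libraries and 4 to 8 when any single library was left out.

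Among genes outside the lists, the naming rule took those with the smallest p whose libraries did not overlap. Adh7, an alcohol dehydrogenase that oxidises retinol, had 2346, 3516, 3142, 2553 and 2738 normalized counts at ZT7 and 11369, 8591, 7500, 8687 and 15190 at ZT19. Each ZT19 library had more than the highest ZT7 library, and the log2 fold change was 1.84 ± 0.36 (adjusted p = 0.075), 1.73 with the covariate and 1.81 without the 3 ZT7 libraries. Plin2, which coats lipid droplets, had 999, 1321, 853, 1167 and 644 at ZT7 and 3660, 2427, 2060, 3237 and 5102 at ZT19 (log2 fold change 1.73 ± 0.38, adjusted p = 0.107, or 1.41 with the covariate and 1.51 without the 3 ZT7 libraries). Gstz1, a glutathione transferase of tyrosine breakdown, had means of 276 ± 127 and 834 ± 231, and its log2 fold change of 1.60 ± 0.35 was 2.04 with the covariate and 2.02 without the 3 ZT7 libraries. The aldo-keto reductase Akr1c18 had a log2 fold change of 2.18 ± 0.49, the secreted protein gene Fam132a 1.68 ± 0.35, Rgcc 1.63 ± 0.37 and Moxd1 1.24 ± 0.28. All 7 genes kept their sign in every alternative run.

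In the other direction the rule took genes of lower level. Tll1, a tolloid-like protease that processes matrix and growth factor precursors, had 284, 395, 284, 405 and 460 normalized counts at ZT7 and 88.3, 79.6, 95.0, 178 and 166 at ZT19. Its log2 fold change was -1.59 ± 0.40 (adjusted p = 0.107), -1.56 with the covariate and -1.48 without the 3 ZT7 libraries. Il17rd, an inhibitor of FGF signalling, had 318, 130, 267, 398 and 274 at ZT7 and 18.1, 45.6, 91.7, 45.1 and 50.3 at ZT19, with a log2 fold change of -2.47 ± 0.58, or -1.53 with the covariate and -2.15 without the 3 ZT7 libraries. Lrrtm2 had means of 229 ± 61.6 and 39.4 ± 23.5, and the zinc finger gene Zscan26 had 599 ± 138 and 221 ± 74.9. Igfn1 was different, with 4.92 and 7.43 in ZT7 replicates 1 and 2 and 254, 160 and 239 in replicates 3 to 5, so its level went with the libraries of few gene reads. Sspo, Gltscr1 and Itpkb had log2 fold changes of -3.21 ± 0.85, -1.83 ± 0.51 and -1.92 ± 0.55, and with the covariate these were -2.11, -0.69 and -0.73.

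Signalling by the lysophospholipids S1P and LPA, which guide and retain lymphocytes and shape lymphatic permeability, had 2 of 12 genes at an unadjusted p under 0.05, both with the higher mean at ZT19, against 6.70% of all genes (11.9% at a mean of at least 100). Enpp2 encodes autotaxin, the secreted enzyme that makes LPA. It had 483, 520, 446, 278 and 241 normalized counts at ZT7 and 2764, 1967, 1280, 797 and 968 at ZT19, and the groups did not overlap. The log2 fold change was 1.98 ± 0.38 (edgeR's quasi-likelihood test, adjusted p = 0.0744), 1.33 with the covariate and 1.63 without the 3 ZT7 libraries, and it was called in 3 of 22 alternatives. Sphk1, which makes S1P, had 331, 820, 381, 410 and 337 at ZT7 and 1074, 1004, 742, 960 and 924 at ZT19. Only ZT7 replicate 2 reached into the ZT19 range, and the log2 fold change was 1.04 ± 0.30 (adjusted p = 0.107), 0.82 with the covariate and 0.71 without the 3 ZT7 libraries (unadjusted p = 0.112).

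**Figure D4:**
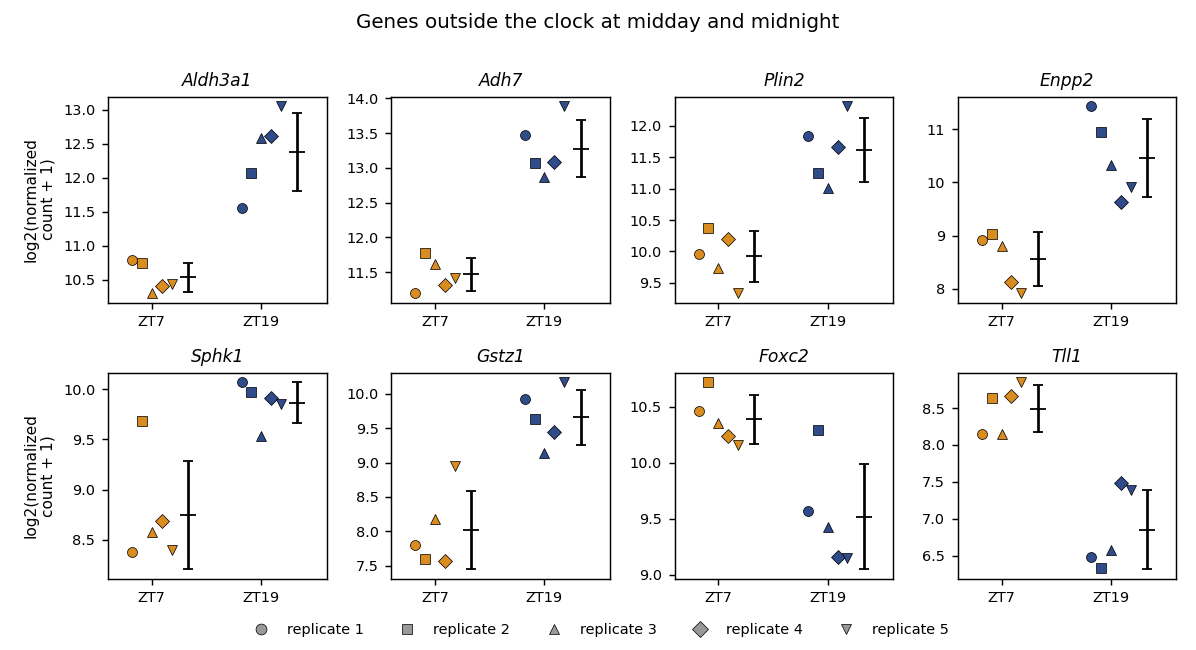
Log2(normalized count + 1) of 8 genes outside the clock in each of 5 libraries at ZT7 (orange) and ZT19 (blue), with mean and SD of the log2 values as bars. Aldh3a1, Adh7, Plin2, Enpp2 and Gstz1 lie higher at ZT19 and Tll1 higher at ZT7 without overlap, and Sphk1 and Foxc2 overlap.

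Genes of LEC identity and of dendritic cell transit had 0 or 1 member per list at an unadjusted p under 0.05. The shares of all genes were 13% with the higher mean at ZT7 and 6.70% with the higher mean at ZT19 (2.49% and 11.9% at a mean of at least 100). Of 11 tested lymphatic identity genes, 1 was so (Stab2, a scavenger receptor, with means of 180 ± 131 at ZT7 and 33.7 ± 38.2 at ZT19). The log2 fold change of Stab2 was -2.42 ± 0.96, and it did not pass with the covariate (-1.25, unadjusted p = 0.201) or without the 3 ZT7 libraries (-0.95, unadjusted p = 0.46). The count of 1 became 0 without ZT7 replicate 5 and 2 without ZT19 replicate 4. Lyve1, the hyaluronan receptor through which dendritic cells dock, had 12807, 29894, 11338, 12560 and 6393 normalized counts at ZT7 and 6424, 20990, 16513, 19170 and 24562 at ZT19. The ranges almost coincided, with a log2 difference of 0.26 ± 0.43 (unadjusted p = 0.548), or -0.28 without the 3 ZT7 libraries. Mmrn1 and Nr2f2 had log2 differences of 0.16 ± 0.40 and -0.65 ± 0.38. Foxc2, which is required for lymphatic valves, had 1410, 1686, 1310, 1211 and 1142 at ZT7 and 759, 1257, 686, 569 and 566 at ZT19. Only ZT19 replicate 2 reached the ZT7 range, and the log2 fold change of -0.82 ± 0.29 (adjusted p = 0.131) was -0.89 with the covariate and -1.01 without the 3 ZT7 libraries. It was 1 of 8 valve and collector genes at an unadjusted p under 0.05, and the count with the higher mean at ZT7 was 2 without ZT7 replicate 2 or ZT19 replicate 4. The tight junction gene Cldn11 of the same list had a log2 difference of -1.37 ± 0.72.

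Among 16 adhesion and transit genes, only Selp was at an unadjusted p under 0.05, with the higher mean at ZT7 as in 13% of all genes. The count was 2 without ZT7 replicate 4 or ZT19 replicate 2 and 3 without ZT19 replicate 3. This P-selectin gene had 13.1 to 157 normalized counts at ZT7 and 0 to 9.04 at ZT19, and its highest values were 89.1 and 157 in ZT7 replicates 4 and 5. Its log2 fold change of -3.96 ± 1.45 was -1.57 with the covariate and -2.10 without the 3 ZT7 libraries. F11r (JAM-A) had means of 4398 ± 1460 and 5663 ± 1572, Jam3 (JAM-C) 148 ± 61.0 and 63.9 ± 57.2, Pecam1 (CD31) 3239 ± 801 and 3693 ± 1000, and Cdh5 (VE-cadherin) 2194 ± 895 and 1534 ± 1242. Their unadjusted p values were 0.335, 0.126, 0.538 and 0.261. Of the 11 endothelial junction genes and 10 basement membrane genes tested, 0 were at an unadjusted p under 0.05. Leaving out 1 library gave 0 to 1 junction genes with the higher mean at ZT19, and 0 to 1 basement membrane genes in each direction. Of 12 pan-endothelial genes, 1 was at an unadjusted p under 0.05 (Esam, log2 fold change 0.94 ± 0.44, or 0.41 with the covariate and 0.36 without the 3 ZT7 libraries, where it did not pass). The count of 1 became 0 without any 1 of ZT7 replicates 1, 3, 4 and 5 or ZT19 replicates 2, 3 and 5. A p above the threshold does not show equal levels.

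Of the chemokines and atypical receptors, 11 of 15 were tested, and 1 was at an unadjusted p under 0.05 in each direction, against 6.70% and 13% of all genes. Leaving out 1 library gave 0 to 1 with the higher mean at ZT19 (0 without ZT7 replicate 3, 4 or 5 or ZT19 replicate 2, 3 or 5) and 0 to 2 with the higher mean at ZT7 (0 without ZT7 replicate 3 or ZT19 replicate 1 or 2, and 2 without ZT7 replicate 2 or ZT19 replicate 3 or 4). Ackr3, a scavenger of CXCL12 and adrenomedullin, had means of 2416 ± 1143 and 4269 ± 2197 (unadjusted p = 0.0392). Its ligand gene Cxcl12 went the other way, with 487, 433, 459, 336 and 441 normalized counts at ZT7 and 126, 180, 366, 271 and 233 at ZT19. Replicate 3 of ZT19 lay above the lowest ZT7 library, and the log2 fold change was -0.88 ± 0.38 (unadjusted p = 0.0295). Both kept their sign in the 22 alternatives, and neither was at an unadjusted p under 0.05 with the covariate or without the 3 ZT7 libraries. Inflammatory genes had 3 of 11 tested members at an unadjusted p under 0.05, all with the higher mean at ZT19, against 6.70% of all genes. In the same fit 5 of its genes had log2 differences of -3.64 to -2.79 that did not pass. The median of the list was -0.18, and its sign turned with the covariate (1.06) and without the 3 ZT7 libraries (1.92). Leaving out 1 library gave 0 to 3 with the higher mean at ZT19 and 0 to 3 with the higher mean at ZT7, and medians of -1.85 to -0.78. The first count was 0 without ZT7 replicate 3 and 1 without any other ZT7 library or without ZT19 replicate 4 or 5, and the second was 3 without ZT19 replicate 3 or 4. Cxcl1 had 490 and 1142 in ZT19 replicates 4 and 5 and at most 140 elsewhere, and Ccl20 had 215 and 696 in the same pair and at most 32.7 elsewhere. Ccl2 had 979 in ZT19 replicate 4 and at most 210 elsewhere. Ccl20 passed an unadjusted 0.05 with the covariate (unadjusted p = 0.0028) and without the 3 ZT7 libraries (unadjusted p = 0.024), Ccl2 passed with the covariate alone (unadjusted p = 0.0475), and Cxcl1 passed in neither. Of 12 interferon-stimulated genes, 1 had a positive log2 fold change, and 2 (Rsad2 and Oasl2) were at an unadjusted p under 0.05 with the higher mean at ZT7, against 13% of all genes. The 2 became 1 without ZT7 replicate 3 and 4 without ZT19 replicate 3. For Rsad2 the log2 fold change of -3.07 ± 1.29 was -0.74 with the covariate and 0.08 without the 3 ZT7 libraries, and for Oasl2 the value of -4.62 ± 1.95 was 0.31 and 0.49.

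Markers of other cell types were counted in the same way. Of 19 keratinocyte markers tested, 3 were at an unadjusted p under 0.05 with the higher mean at ZT19, against 6.70% of all genes and 11.9% of those with a mean of at least 100. Krt79 had means of 1280 ± 720 and 3570 ± 1608, and Krt15 had 18674 ± 6119 and 41400 ± 17312. Their log2 fold changes of 1.48 ± 0.38 and 1.15 ± 0.40 were 1.44 and 0.95 with the covariate and 1.03 and 0.74 without the 3 ZT7 libraries, where 0 keratinocyte markers were at an unadjusted p under 0.05 with the higher mean at ZT19. Krt14 had 32719 ± 16320 and 52650 ± 15221 (unadjusted p = 0.147). Log2 fold changes were positive in 11 of the 19 keratinocyte markers (median 0.24) and not in the others. The lowest was that of Krt10 (-1.86 ± 0.96), which did not pass. Of 11 fibroblast markers, 3 were so, and 3 to 4 when any single library was left out. Log2 fold changes were positive in 8 of the 11 fibroblast markers (median 0.75) and not in the others. The lowest was that of Mfap5 (-3.785 ± 1.968), which did not pass. Ccdc80, a matrix protein gene, had 139, 117, 402, 202 and 259 normalized counts at ZT7 and 2036, 2029, 1805, 213 and 559 at ZT19 (log2 fold change 2.58 ± 0.51, adjusted p = 0.075). Col3a1 had 911, 2977 and 3185 in ZT19 replicates 1 to 3 but 6.45 and 109 in replicates 4 and 5, and Dcn had means of 1054 ± 686 and 3467 ± 2108. Fibroblast marker sums were 963 to 4712 at ZT7, and at ZT19 they were 1254 in replicate 4 and 7777 to 13250 in the others. With keratinocyte and fibroblast scores as covariates, 7.96% of genes were at an unadjusted p under 0.05 with the higher mean at ZT19. With the higher mean at ZT7 there were 21.0%. The scores came from marker genes of these same libraries, so that fit does not tell the part of these cells in the gene differences.

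Of the other lineages, leukocyte marker sums were 484 to 935 at ZT7 and 451 to 1232 at ZT19, mural cell sums 289 to 1452 and 268 to 1118, Schwann cell and melanocyte sums 210 to 485 and 54.4 to 647, and muscle and fat sums 25.8 to 455 and 40.8 to 226. No member of these lists was at 0 in all 5 libraries of a time point. Blood endothelial marker sums were 3308 to 6780 and 4783 to 5852. Tested in these 5 lists were 11 leukocyte, 7 mural cell, 8 Schwann cell and melanocyte, 7 muscle and fat, and 7 blood endothelial markers. Of all these, 7 had higher means at ZT7 at an unadjusted p under 0.05, against 13% of all genes and 26.2% of those with a mean under 100 normalized counts. They were Flt1 and Sema3g of blood endothelium, the dendritic cell integrin gene Itgax, the smooth muscle myosin gene Myh11, the fat cell genes Plin1 and Cfd, and the muscle creatine kinase gene Ckm. Epcam, which was listed with the leukocytes for Langerhans cells and is also made by epithelia, had the higher mean at ZT19 (unadjusted p = 0.0493). Sema3g had 0 counts in ZT7 replicates 1 and 2 and 33.9, 87.6 and 91.3 in replicates 3 to 5, and its log2 fold change of -5.46 ± 2.03 was 3.48 without the latter. Itgax had at most 12.6 in replicates 1 and 2 and 31.7, 110 and 193 in replicates 3 to 5. Plin1, Cfd and Ckm had at most 0.572 in replicates 1 and 2 and up to 71.3, 62.4 and 44.4 in replicates 3 to 5, and Myh11 had 43.0 and 6.86 against 125 to 221. Flt1 had 69.7 to 237 at ZT7 and 0 to 68.0 at ZT19, and its log2 fold change of -2.66 ± 1.07 was -1.54 with the covariate and -2.63 without the 3 ZT7 libraries. None of the 7 was at an unadjusted p under 0.05 in either fit. The counts with the higher mean at ZT7 also moved when 1 library was left out. The leukocyte count of 1 became 4 without ZT19 replicate 3 and 2 without ZT7 replicate 1 or 2 or ZT19 replicate 4. The mural cell count of 1 became 0 without ZT7 replicate 4 or 5 or ZT19 replicate 1 or 5 and 2 without ZT19 replicate 3 or 4. The muscle and fat count of 3 became 1 without ZT7 replicate 4 or ZT19 replicate 1, 2, 3 or 5, and the Schwann cell and melanocyte count of 0 became 1 without ZT19 replicate 3. In bulk libraries, fewer cells of a type and less RNA per cell cannot be told apart.

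Nuclear genes of the respiratory chain had 19 of 76 tested members at an unadjusted p under 0.05 with the higher mean at ZT19 and 0 with the higher mean at ZT7 (median log2 fold change 0.49), against 6.70% and 13% of all genes (11.9% and 2.49% at a mean of at least 100). Ndufv1 of complex I had means of 1737 ± 743 and 3702 ± 600, and Atp5b of the ATP synthase had 9245 ± 4261 and 17186 ± 6704. Leaving out any single library gave counts of 10 to 57, with 57 without ZT7 replicate 1, 10 without ZT19 replicate 5 and 11 without ZT7 replicate 5. The count was 5 with the covariate and 0 without ZT7 replicates 3, 4 and 5 together. The median of 0.49 was 0.46 with the covariate, 0.10 to 1.23 when any single library was left out and -0.14 without those 3 libraries, so its sign turned there. It was 0.10 without ZT19 replicate 4 and 1.23 without ZT7 replicate 1. Replicate 1 had a summed level of 460800, against 79350 to 137100 in the other ZT7 libraries, while ZT19 replicates 4 and 5 had 445000 and 410500 and the other ZT19 libraries 143100 to 159100. Cytosolic ribosomal protein genes had 2 of 81 at an unadjusted p under 0.05, and 26 without ZT7 replicate 1. The count was 1 without ZT19 replicate 1 or 2 and 0 without ZT7 replicate 3, 4 or 5 or ZT19 replicate 4 or 5, and their median log2 fold change of 0.34 was -0.45 without ZT19 replicate 4 and -0.34 without the 3 ZT7 libraries. Rps6 of this group had 3399 normalized counts in ZT7 replicate 1 and 1131 to 2171 in the other ZT7 libraries, against 1865 to 4848 at ZT19. Libraries with high and with low levels of these transcripts occurred at both times.

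**Figure D5:**
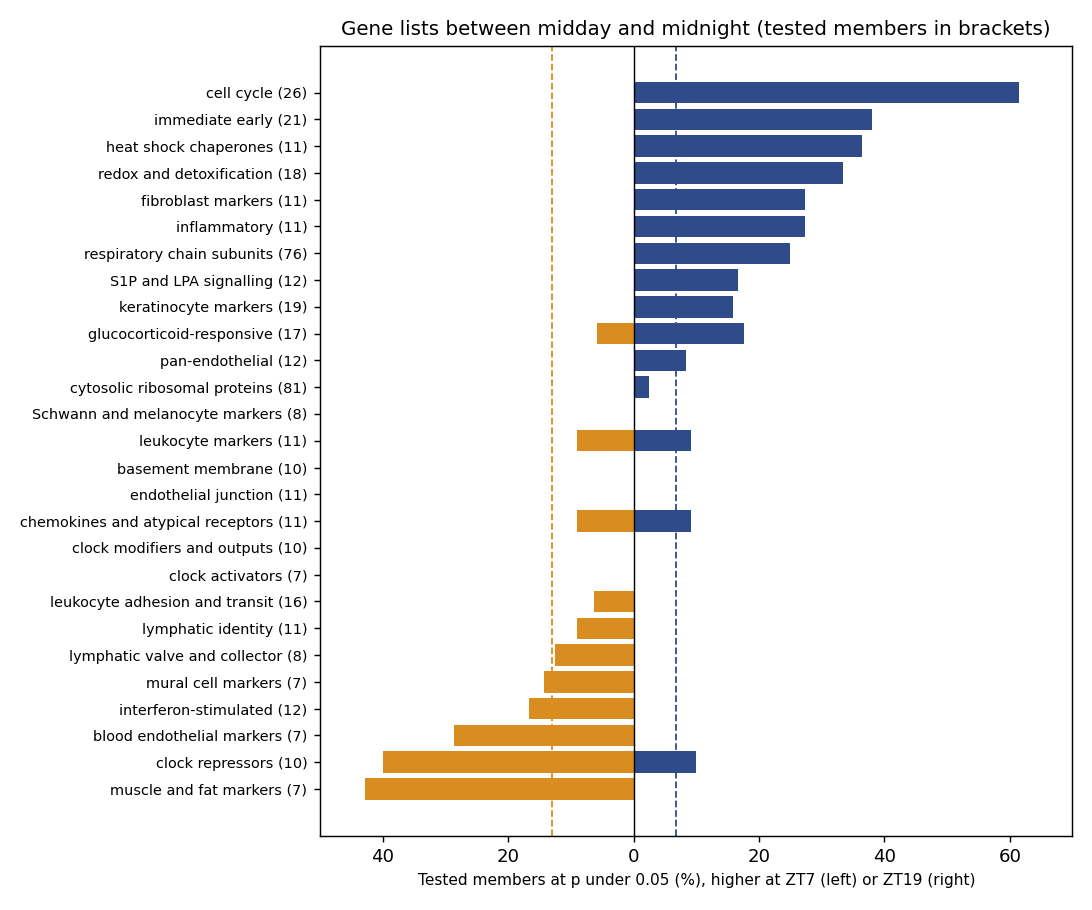
Share of tested members of each gene list (members in brackets, lists of at least 7) at an unadjusted p under 0.05 (edgeR), with the higher mean at ZT19 (blue, right) or ZT7 (orange, left). Dashed lines mark the shares of all genes, 6.70% and 13%, and the cell cycle list reaches furthest to the right with 16 of 26.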

How the data were processed

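Dermal LECs sorted at ZT1, ZT7, ZT13 and ZT19 were sequenced in 5 pools per time point (SMART-Seq v4 cDNA, Nextera XT, single-end reads of 100 nt). The authors deposited raw counts per gene symbol, made per the labels with STAR on mm10 and HTSeq, followed by DESeq2. The versions given, 1.0.0 for HTSeq and 2.11.40.6 for DESeq2, are named in the study's methods as Galaxy versions. The annotation and strand setting are not given in the sources used here, so reads of overlapping or antisense genes cannot be separated. Lines with totals of unassigned reads were left out of library sizes and tests.

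Counts of all 20 libraries were fitted in R 4.3.3 with edgeR 4.0.16 (TMM, filter by expression per time point, quasi-likelihood test), which gave 1 estimate of the spread from 4 time points, and the contrast was ZT19 minus ZT7. Of 24062 symbols 19209 were tested, and p-values were adjusted over all of them by Benjamini-Hochberg. SE is the log2 fold change divided by the root of F. Library properties were compared by exact permutation. A count of 3 was taken as the floor, which reflects counting error alone because no molecular identifiers were used.

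The members and gene lists were chosen with earlier results of these data known. Genes were named by rule, as all called genes, all clock genes, the 3 smallest p and 2 highest levels of each list, the 10 genes per direction with the smallest p whose libraries did not overlap and whose mean was at least 50, and adhesion molecules. Markers of cell types were also named, and 2 genes that the rule takes are not reported here. Coordinates and promoters are from RefSeq (GRCm38.p6), and older symbols were matched through its synonyms.

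Alternatives were DESeq2 1.42.0, other scalings and filters, the 10 libraries alone, a replicate block, covariates, a length offset, thinning to the smallest library and leaving out each library. Leaving out ZT7 replicates 3, 4 and 5 was added after seeing the data.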

Additional observations from a re-analysis of the deposited data

Results flagged for a closer look

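Values far from the rest of their group were looked for in 190 groups of 5 libraries (log2 normalized counts of the genes followed above, and 3 library properties), by the gap to the nearest library divided by the range. Chance gives about 9.5 such groups of 190, and 8 were found. ZT7 replicate 2 was the far library in 5 of them. It lay low for Fam131b (0.735 of the range), Bhlhe41 (0.77) and Sspo (0.785), and high for Arntl (0.715) and Sphk1 (0.763). ZT7 replicate 3 lay low for Ccl2 (0.884), where it had no count, and ZT19 replicate 1 lay low for Lrrtm2 (0.737). ZT19 replicate 4 was the single ZT19 library with counts of Cfd, so its gap was the whole range (1).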

How the results depend on the processing

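Direction was kept by 72 of 92 named genes in every alternative run (up to 22 per gene), Dbp, Aldh3a1, Hlf, Nr1d1, Nr1d2, Cry1 and Nfil3 among them. Calls were few and unstable. Genes called higher at ZT19 numbered 1 in the reported fit, 208 by DESeq2, 290 with keratinocyte and fibroblast scores as covariates, and 0 with RLE scaling, upper-quartile scaling, the stricter filter (50 counts in 5 libraries), the 10 libraries alone, the share of reads on genes as covariate, thinning, and without ZT7 replicates 3, 4 and 5. Genes called higher at ZT7 numbered 2 in the reported fit, 2410 by DESeq2, 1260 with those scores, 1 with the stricter filter, the share covariate and thinning, and 0 with the 10 libraries alone and without ZT7 replicates 3, 4 and 5. Leaving out 1 library gave 0 to 3 and 0 to 1 calls, and the calls were lost in both directions without ZT7 replicate 1, 2, 3 or 4 or ZT19 replicate 3 or 5.

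Genes at an unadjusted p under 0.05 with the higher mean at ZT19 (1287) numbered 797 with RLE scaling, 649 with upper-quartile scaling, 392 without ZT7 replicates 3, 4 and 5, and 735 (without ZT7 replicate 5) to 1773 without 1 library. Those with the higher mean at ZT7 (2491) numbered 5286 by DESeq2, 4414 with no filter, 794 with the stricter filter, 562 in the 10 libraries alone, 351 with the share covariate, 4042 with the scores, 402 without ZT7 replicates 3, 4 and 5, and 1918 to 3605 without 1 library. Genes without overlap (177 and 196) numbered 98 and 295 with RLE scaling and 80 and 331 with upper-quartile scaling. Without 1 library they numbered 194 to 667 and 225 to 854. These last counts could only stay or rise, because fewer libraries cannot add overlap, so they do not speak to stability. The log2 differences in total and in odds of gene reads were 1.23 to 1.72 and 1.75 to 2.69 without 1 library, with adjusted p between 0.0357 and 0.131 by the exact permutation test. The cause of the other shifts was not tested.

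Signs of 20 genes turned, all of them genes not called in the reported fit. With the share covariate the log2 fold changes were 0.15 (Clock), 0.17 (Arntl2), 1.48 (Rorb), 0.25 (Per1), -0.38 (Bhlhe40), 0.02 (Bhlhe41), -0.50 (Mmrn1), -0.40 (F11r), -0.10 (Pecam1), 0.21 (Cdh5), 1.19 (Sema3g), 0.31 (Oasl2), 0.99 (Myh11) and 0.82 (Ckm). Without ZT7 replicates 3, 4 and 5 they were 0.00 (Clock), -0.45 (Rora), 0.35 (Rorb), 0.12 (Per1), -0.18 (Bhlhe40), 0.24 (Ddit4), 0.08 (Rsad2), -0.28 (Lyve1), -0.20 (Mmrn1), -0.07 (F11r), 3.48 (Sema3g), 0.49 (Oasl2), 2.49 (Cfd) and 3.34 (Ckm). Rora was -0.05 by DESeq2 and RLE, -0.10 with upper-quartile scaling and -0.01 with the stricter filter. Clock was 0.10 with the length offset, and upper-quartile scaling gave -0.02 for Mmrn1 and -0.03 for Pecam1. Leaving out 1 library gave -0.04 to 0.34 for Rora, -0.03 to 0.57 for Per2 and -0.08 to 0.39 for Mmrn1.

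Replicate numbers are shared between the time points, but same-numbered libraries did not deviate together (correlations 0.0785, 0.0728, 0.129, 0.182 and -0.205), and 2 of 5 correlated best with their own number. With a replicate block the calls were 0 and 0, with 1054 and 2393 genes at an unadjusted p under 0.05, and the sign-flip test of the paired differences gave 1.43 for total reads (exact p = 0.0625, the smallest it can give).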
